A study of Mus musculus with 12 samples.

Results

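The 53 genes described here work in DNA replication and mitosis or serve as markers of dividing cells. They were chosen by name, and each had 1 entry among the 18351 genes counted in islets of mice that were wild type (WT) or Aldh1b1 tm1lacZ null. Poly(A) RNA of isolated islets was sequenced in 12 libraries, 3 in each of 4 groups, namely *Aldh1b1* null at week 8, WT at week 8, *Aldh1b1* null at postnatal day 1 (P1) and WT at P1. The tm1lacZ allele is given in the labels of the week 8 null islets, while those of the P1 null islets say only *Aldh1b1* null. The allele is carried in the germ line, so it is not confined to beta cells, and the sources used here do not give the mouse background strain. The study's methods name male mice for islet isolation. A week 8 library came from 1 mouse and a P1 library from the pooled islets of 3 mice, so the spread between libraries does not mean the same thing at both ages, and p-values measure the spread between these libraries only. The week 8 null libraries are called here MUT218, MUT219 and MUT229, as in their labels.

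Reads assigned to genes ran from 22573618 to 26744706 in week 8 null, 21665200 to 29248285 in week 8 WT, 15212080 to 19496469 in P1 null and 17858553 to 18342428 in P1 WT libraries. *Aldh1b1*, the targeted gene, had 1, 0 and 0 reads in week 8 null and 40, 92 and 61 reads in week 8 WT libraries, and 0, 0 and 3 reads in P1 null against 87, 86 and 121 reads in P1 WT libraries, so each library fitted its label. The labelled tissue was present in every library, since the 13 beta cell markers took from 1.27% to 13.7% of the reads. Acinar reads, from the exocrine tissue around islets, were abundant and differed between the groups. The 29 acinar markers took 12.6, 23.8 and 13.7% of the reads in null libraries MUT218, MUT219 and MUT229 and 49.5, 48.6 and 54.7% in week 8 WT libraries, against 25.7, 22.2 and 11.2% in P1 null and 3.39, 2.17 and 6.8% in P1 WT libraries.

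Before a cell divides, the helicase made of *Mcm2* to *Mcm7* is loaded onto replication origins by *Cdc6* and *Cdt1*, with *Gmnn* holding *Cdt1* in check, and DNA is then copied around the sliding clamp *Pcna* with nucleotides that ribonucleotide reductase (*Rrm1* and *Rrm2*), *Tyms* and *Tk1* help to supply. In mitosis, *Cdk1* with its cyclins and the kinases of the Aurora and Polo families drive chromosome condensation and spindle assembly, the NDC80 complex (*Ndc80*, *Nuf2*, *Spc24* and *Spc25*) ties kinetochores to microtubules, and *Ect2*, *Racgap1* and *Anln* build the contractile ring of cytokinesis. Beta cells of rodents replicate most around birth and rarely in adults.

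The members were read at every age and in every library. Levels are given as normalised counts, which are reads over the size factor of their library, and levels of different genes are compared only as normalised counts per kilobase (kb) of transcript. On this per-kb scale the median member stood at 27.8 in week 8 null, 17.1 in week 8 WT, 90.7 in P1 null and 82.1 in P1 WT islets. *Pcna* led at P1, with 400.5 ± 70.3 per kb in null and 365 ± 82.9 per kb in WT islets (SD, n = 3 each). Its lead over the next genes in P1 null, *Mcm6* with 322 ± 119 and *Mcm4* with 264 ± 67.2 per kb, was within the spread between libraries. At week 8 the order was led by *Spc25*, with 1202 ± 285 per kb in null and 581 ± 131 per kb in WT islets, followed by *Pcna* with 176 ± 22.4 and 269.6 ± 59.1 per kb and by *Mcm2* with 93.4 ± 6.82 and 95 ± 17.7 per kb. *Tk1*, a thymidine kinase, had the lowest level per kb in week 8 null islets, 4.05 ± 0.376, and stood at 2.2 ± 1.2 in week 8 WT islets. *Aurkb* had 8.99 ± 2.69 per kb in week 8 null islets and, at 2.05 ± 1.65, the lowest level in week 8 WT islets, where it differed from *Tk1* by less than the spread between libraries.

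**Figure D1:**
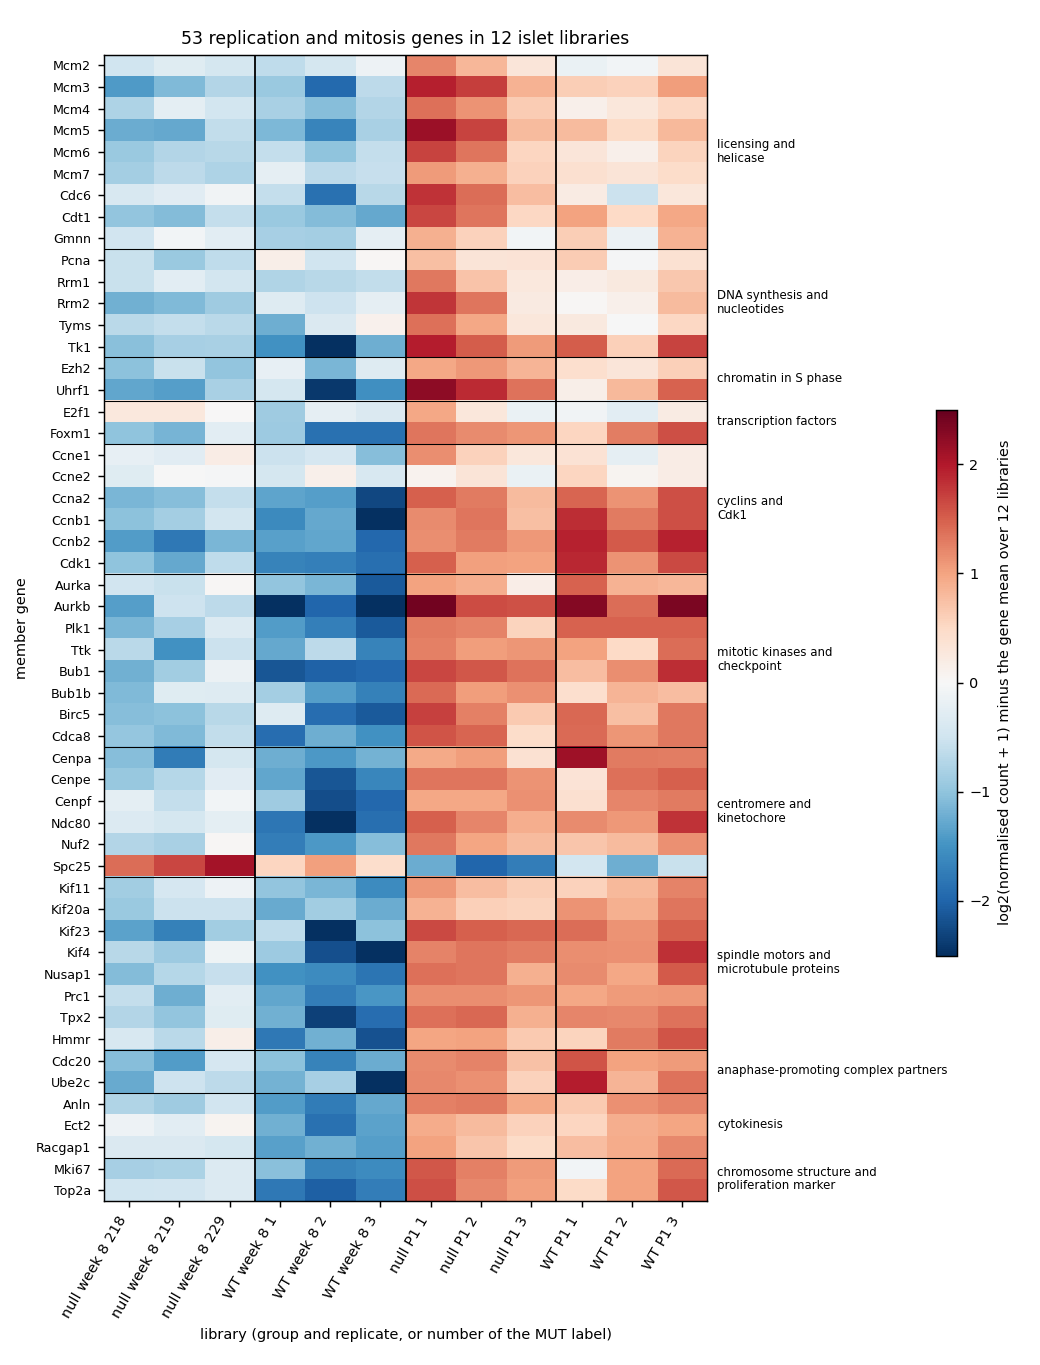
Heat map of the 53 members (rows, by role) in the 12 libraries (columns, by group). Colour gives log2(normalised count + 1) minus the mean of that gene over all 12 libraries, so red is above and blue below the gene's own mean. Nearly all rows are red at P1 and blue at week 8, apart from *Spc25*, which is reversed, and the week 8 null columns are paler than the week 8 WT columns in the mitotic rows.

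By role, 16 members are called here S phase genes (licensing and helicase, DNA synthesis and nucleotides, and chromatin in S phase) and 27 mitosis genes (kinases and checkpoint, kinetochore, spindle, anaphase-promoting complex and cytokinesis). The transcription factors *E2f1* and *Foxm1*, the cyclins with *Cdk1*, and the general markers *Mki67* and *Top2a* stand outside both. The promoters of the members were compared with those of all genes, since genes of S phase and of mitosis are known to be controlled through different DNA elements. RefSeq promoters of build GRCm38.p6, 250 bases before to 50 bases after the start, were at hand for 45 of the 53 members and for 27025 genes in all. They were searched on both strands for the cell cycle homology region (CHR, TTTGAA or TTTAAA), for the CCAAT box (CCAAT), and for the E2F site (TTTGCCGC, TTTGGCGC, TTTCCCGC or TTTCGCGC). A CHR of either form lay in 21 of 24 promoters of mitosis genes (87.5%) and in 4 of 14 promoters of S phase genes (28.6%), against 27.8% of all promoters. The E2F site lay in 7 of 14 promoters of S phase genes (50%) and in 0 of 24 of mitosis genes, against 2.32% of all promoters. A CCAAT box lay in 19 of 24 (79.2%) and in 10 of 14 (71.4%), against 37.9% of all promoters. The promoters of 4 S phase genes, of *Top2a* and of 3 mitosis genes on which the results turn are given 5′ to 3′ with every match in capitals, to show this contrast.
Mcm6 (chr1:128359656-128359955, - strand): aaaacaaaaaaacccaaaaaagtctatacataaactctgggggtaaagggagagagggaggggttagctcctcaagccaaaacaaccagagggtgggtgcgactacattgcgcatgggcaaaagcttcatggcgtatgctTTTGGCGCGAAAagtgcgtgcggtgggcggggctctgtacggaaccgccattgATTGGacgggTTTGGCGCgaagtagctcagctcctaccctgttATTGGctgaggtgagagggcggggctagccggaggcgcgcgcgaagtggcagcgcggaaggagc
Cdc6 (chr11:98907901-98908200, + strand): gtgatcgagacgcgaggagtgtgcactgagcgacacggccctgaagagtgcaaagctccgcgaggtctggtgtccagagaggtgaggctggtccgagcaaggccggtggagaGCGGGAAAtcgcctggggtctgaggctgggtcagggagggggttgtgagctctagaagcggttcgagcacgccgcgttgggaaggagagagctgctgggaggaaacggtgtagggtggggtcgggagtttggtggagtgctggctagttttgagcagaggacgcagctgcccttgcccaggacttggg
Rrm2 (chr12:24708004-24708303, + strand): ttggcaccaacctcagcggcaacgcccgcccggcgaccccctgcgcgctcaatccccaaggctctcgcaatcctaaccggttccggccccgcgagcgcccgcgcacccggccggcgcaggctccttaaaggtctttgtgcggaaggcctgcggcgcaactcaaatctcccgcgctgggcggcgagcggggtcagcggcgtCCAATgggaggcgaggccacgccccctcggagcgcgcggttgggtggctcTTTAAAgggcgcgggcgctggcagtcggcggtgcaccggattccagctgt
Pcna (chr2:132253131-132253430, - strand): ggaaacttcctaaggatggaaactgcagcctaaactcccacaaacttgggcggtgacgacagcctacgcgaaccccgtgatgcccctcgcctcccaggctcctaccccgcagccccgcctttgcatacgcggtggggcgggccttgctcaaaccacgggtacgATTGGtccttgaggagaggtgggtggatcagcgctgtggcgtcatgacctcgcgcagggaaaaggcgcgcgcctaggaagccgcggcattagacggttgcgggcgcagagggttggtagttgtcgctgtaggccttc
Top2a (chr11:99024140-99024439, - strand): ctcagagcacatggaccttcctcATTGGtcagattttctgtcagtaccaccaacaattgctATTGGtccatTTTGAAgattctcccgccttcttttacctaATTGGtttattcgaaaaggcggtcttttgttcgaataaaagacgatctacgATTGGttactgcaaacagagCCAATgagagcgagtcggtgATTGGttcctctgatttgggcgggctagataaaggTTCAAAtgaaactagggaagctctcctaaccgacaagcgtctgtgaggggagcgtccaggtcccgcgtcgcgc
Ndc80 (chr17:71526808-71527107, - strand): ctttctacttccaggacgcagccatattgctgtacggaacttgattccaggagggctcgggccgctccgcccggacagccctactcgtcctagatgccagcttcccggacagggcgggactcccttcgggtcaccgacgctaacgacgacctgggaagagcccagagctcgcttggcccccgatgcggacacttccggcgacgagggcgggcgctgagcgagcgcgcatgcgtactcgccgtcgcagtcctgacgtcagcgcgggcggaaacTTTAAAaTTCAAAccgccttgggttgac
Racgap1 (chr15:99651607-99651906, - strand): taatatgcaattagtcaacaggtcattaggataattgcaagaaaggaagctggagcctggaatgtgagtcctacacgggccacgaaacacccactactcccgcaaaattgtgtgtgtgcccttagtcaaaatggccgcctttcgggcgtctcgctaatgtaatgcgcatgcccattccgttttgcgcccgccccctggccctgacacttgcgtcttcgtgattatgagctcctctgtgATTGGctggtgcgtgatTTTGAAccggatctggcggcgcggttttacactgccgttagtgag
Spc25 (chr2:69206164-69206463, - strand): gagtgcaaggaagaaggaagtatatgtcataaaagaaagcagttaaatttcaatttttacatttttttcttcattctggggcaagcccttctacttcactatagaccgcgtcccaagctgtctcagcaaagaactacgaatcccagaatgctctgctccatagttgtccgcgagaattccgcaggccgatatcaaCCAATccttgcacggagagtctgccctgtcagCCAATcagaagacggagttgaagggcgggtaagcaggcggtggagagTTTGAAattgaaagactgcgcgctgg

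In *Mcm6* the capitals mark 3 E2F sites, of which 2 overlap, and 2 CCAAT boxes (printed as ATTGG where they lie on the other strand), and in *Cdc6* they mark 1 E2F site. *Rrm2* held 1 CHR and 1 CCAAT box, and *Pcna* only 1 CCAAT box. *Top2a* held 2 CHR elements and 6 CCAAT boxes, *Ndc80* held 2 CHR elements side by side just after the start and no CCAAT box, and *Racgap1* held 1 of each. *Spc25*, whose expression differed from that of the other mitosis genes, still held 1 CHR and 2 CCAAT boxes. Among promoters of mitosis genes a CHR lay in 11 of 13 that were higher in week 8 null islets and in 10 of 11 that were not called. These are matches of letters in a fixed window, and no binding was measured.

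At week 8 more than 1 in 3 members were higher in null than in WT islets, most of them genes of mitosis, and none was an S phase gene with libraries scaled by the deposited size factors. Of the 53 members, 19 were higher in null islets and 2 were lower by the limma test at an adjusted p under 0.05, against 12.3% higher and 15.8% lower among all 18126 genes tested. The members' share was 35.8% higher and 3.77% lower. Their median log2 fold change, null over WT on the log2(normalised count + 1) scale, was 0.73, against 0.020 for all genes. By role, 15 of 27 mitosis genes were higher and 0 lower (median 0.90, and all 27 lay above 0), whereas 0 of 16 S phase genes were higher and 2 lower (median 0.12). The 2 lower S phase genes are 12.5% of the 16, near the 15.8% of all genes. In 29 members every null library lay above every WT library, against 21.5% of all genes, and in 2 members every null library lay below, against 22.1% of all genes. In whole islets, fewer cells of a type and less RNA per cell cannot be told apart. The count of higher members dropped to 10 without null MUT218, to 11 without null MUT219, to 5 without null MUT229 and to 5 without WT 3, where 6.41, 9.76, 6.18 and 5.46% of all genes were higher. The count of lower members dropped to 0 without null MUT218, MUT219 or MUT229 or without WT 1 or 3, and to 1 with all 12 libraries in 1 fit. In these fits from 9.33% to 15.2% of all genes were lower. Which members were called, and the sign of some differences, also depended on the scaling. With libraries scaled to their full total of reads, acinar reads included, the median of all genes moved to 0.80 and 56.4% of all genes were higher in null islets. On that scale 47 of the 53 members were higher and 0 lower, and 12 of 16 S phase genes were higher (median 0.92), against a median of 1.59 for the other 37 members. *Top2a*, *Ndc80*, *Spc25*, *Ect2* and *Racgap1* were called in all 18 alternative settings.

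**Figure D2:**
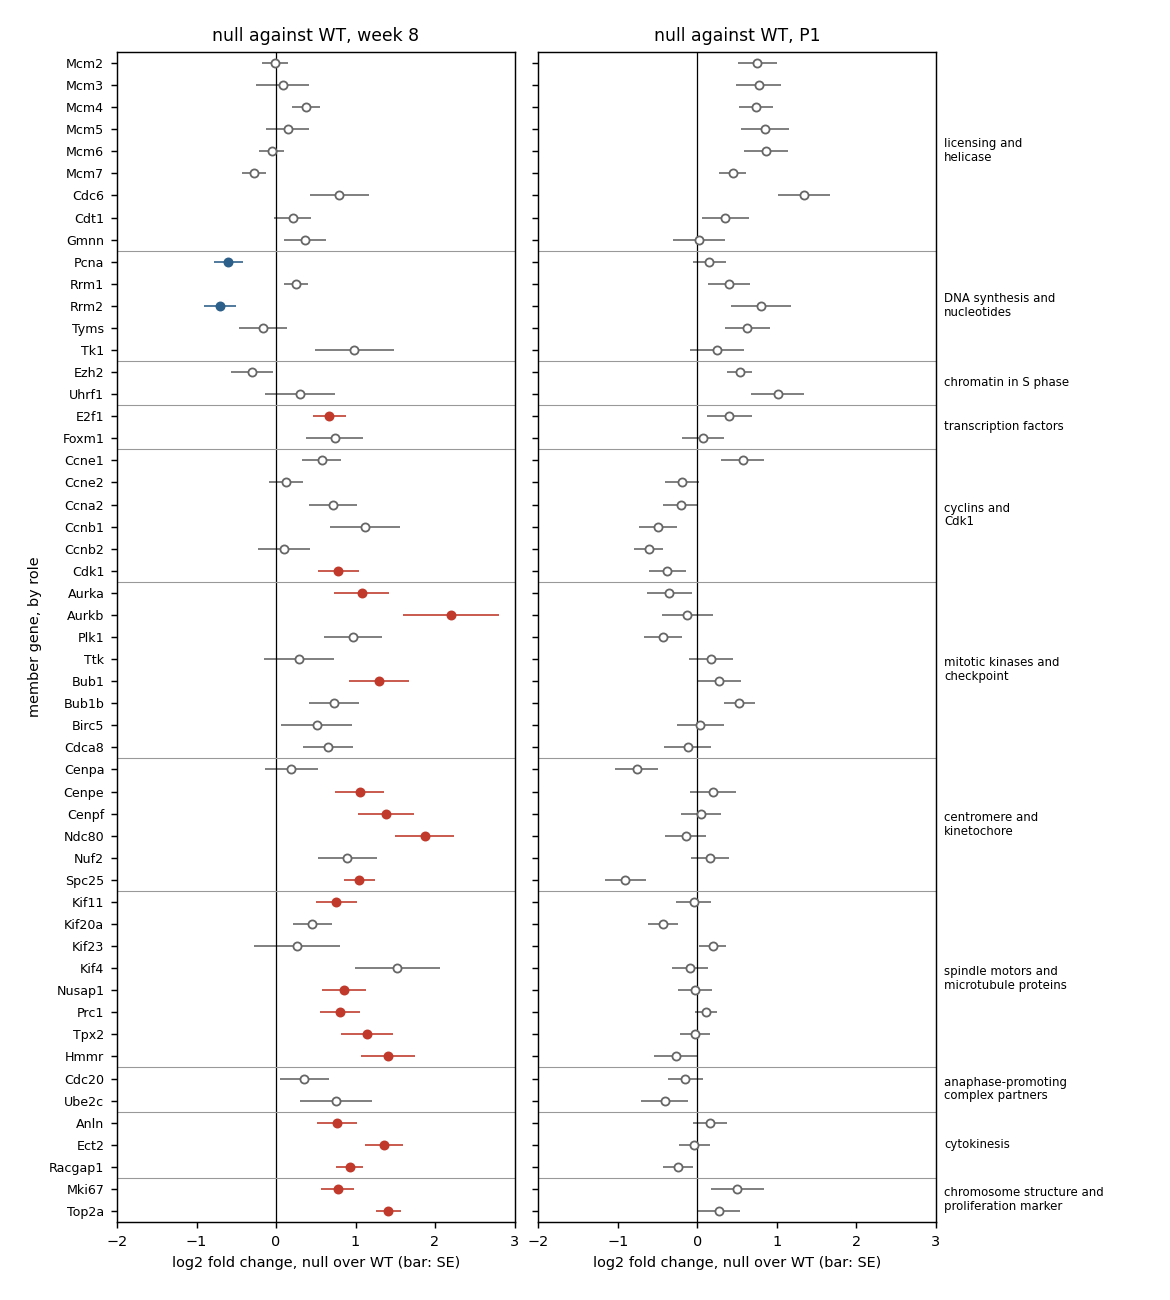
Log2 fold change of null over WT islets for each of the 53 members (rows, by role) at week 8 (left) and P1 (right), with bars of 1 SE. Filled points passed the limma test at an adjusted p under 0.05, red where higher and blue where lower in null islets. At week 8 the 19 red points lie from *E2f1* downward, below the S phase genes, and at P1 no point is filled, while the S phase genes lie to the right of 0.

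Among genes of licensing and the helicase at week 8, 0 of 9 passed the test. *Mcm2*, a helicase subunit, had 296, 340.4 and 307 normalised counts in null MUT218, MUT219 and MUT229 and 268, 307 and 385 in WT 1, 2 and 3. These ranges overlapped, with a log2 fold change of -0.011 ± 0.17 (SE; limma adjusted p = 0.968). *Cdt1*, the loading factor, had 83.3, 78 and 109 in null and 86.9, 77.9 and 67.7 in WT islets. Its inhibitor *Gmnn* had 67.8, 90.3 and 79.6 in null and 53, 52.3 and 81.5 in WT islets. Null and WT ranges overlapped for both, with differences of 0.21 and 0.36 that did not pass the test. *Cdc6* was the only gene of this group with all null above all WT libraries (54.4, 58.9 and 67.3 in null, 47.1, 18.9 and 44.2 in WT; adjusted p = 0.137 by limma). The other helicase subunits, *Mcm3* to *Mcm7*, lay between -0.28 and 0.38 on the log2 scale.

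The genes for DNA synthesis held the 2 members that were lower in null islets. *Pcna*, the sliding clamp, had 464, 361 and 439.9 normalised counts in null and 756, 486 and 699 in WT islets. Every null library lay below every WT library, with a log2 difference of -0.60 ± 0.18 (limma adjusted p = 0.0342). *Rrm2*, the small subunit of ribonucleotide reductase that limits the supply of deoxynucleotides, had 79.9, 85.6 and 99.1 in null and 147, 129 and 157 in WT islets. It was lower in every null library, with a difference of -0.71 ± 0.20 (adjusted p = 0.0258 by limma). Its partner *Rrm1*, the large subunit, differed in the other direction, with 282, 343 and 300.2 in null and 246, 257 and 272 in WT islets. Null and WT values of *Rrm1* did not overlap, but the difference of 0.25 did not pass the test. Nor did *Tyms*, the thymidylate synthase, at -0.16, or *Tk1* at 0.99. *Pcna* and *Rrm2* were each called in 11 of 18 alternatives. With libraries scaled to their total without acinar markers, *Rrm2* was still called and *Pcna* was not. With libraries scaled to their full total both turned, to 0.22 for *Pcna* and 0.10 for *Rrm2*, neither called, where the median of all genes was 0.80. *Ezh2*, the histone methyltransferase of Polycomb, had 140.3, 196 and 145 in null and 250.4, 129 and 229.3 in WT islets, which overlapped, and *Uhrf1*, which brings DNA methyltransferase to newly made DNA, overlapped too.

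*E2f1*, a transcription factor that drives entry into S phase, had 266, 265 and 224 normalised counts in null MUT218, MUT219 and MUT229 and 119, 189 and 173 in WT 1, 2 and 3. Every null library was above every WT library, by 0.67 ± 0.20 on the log2 scale (limma adjusted p = 0.0345). *Foxm1*, a factor for mitotic genes, overlapped between the groups. Of the cyclins and *Cdk1*, only *Cdk1*, the mitotic kinase, passed the test. It had 84.6, 69.4 and 110.0 in null and 53, 51.2 and 45.6 in WT islets, all null above all WT, a difference of 0.78 ± 0.26 (adjusted p = 0.0467 by limma). *Ccnb2* and *Ccne2* differed by 0.10 and 0.12. The cyclins *Ccna2*, *Ccnb1* and *Ccne1* had no overlap between null and WT libraries, but did not pass. *Ccna2*, a cyclin of S phase and G2, had 91.3, 97 and 134 in null and 81, 77.9 and 41.4 in WT islets. *Ccnb1*, the cyclin of mitotic *Cdk1*, had 30.9, 35.2 and 46.3 in null and 20.6, 25.6 and 8.29 in WT islets. *Ccne1*, the cyclin of the G1 to S step, had 116, 109 and 151 in null and 91.3, 99.1 and 63.5 in WT islets. Their log2 differences were 0.72, 1.12 and 0.57, with limma adjusted p-values of 0.107, 0.0872 and 0.109. *E2f1* and *Cdk1* were each called in 12 of 18 alternatives.

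Of the mitotic kinases and checkpoint genes, *Aurka*, *Aurkb* and *Bub1* were higher in null islets and 5 of 8 were not called. *Aurkb*, the kinase of the chromosomal passenger complex, had 17.5, 32.3 and 29.7 normalised counts in null and 1.47, 11.1 and 5.52 in WT islets. The groups did not overlap, and the log2 difference of 2.20 ± 0.60 (limma adjusted p = 0.0229) was the largest of all members. It rests on few reads, 26, 34 and 41 in null against 1, 10 and 4 in WT libraries. *Bub1*, a kinase of the spindle checkpoint, had 26.2, 33.3 and 55.7 in null and 13.3, 14.5 and 15.2 in WT islets, all null above all WT. Its difference was 1.30 ± 0.38 (adjusted p = 0.0296 by limma). *Aurka*, the kinase of spindle poles, was higher by 1.07 ± 0.35. *Cdca8* and *Birc5*, partners of *Aurkb* in the passenger complex, differed by 0.65 and 0.51 and did not pass, nor did the kinases *Plk1* (0.97), *Ttk* (0.29) and *Bub1b* (0.73), which act in mitotic entry and at the spindle checkpoint. *Aurkb* was called in 15 of 18 alternatives, and *Aurka* and *Bub1* each in 14 of 18.

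Of the 6 centromere and kinetochore genes, 4 were higher in null islets. *Ndc80*, the namesake of the complex that grips microtubules, had 66.5, 61.8 and 70.9 normalised counts in null and 23.6, 10 and 22.1 in WT islets. The lowest null library exceeded every WT library, and the difference was 1.87 ± 0.37 on the log2 scale (limma adjusted p = 0.00516). *Cenpf* and *Cenpe*, large proteins of the outer kinetochore, were higher by 1.38 ± 0.35 and 1.05 ± 0.31. *Nuf2*, the binding partner of *Ndc80*, had all null above all WT libraries (32.9, 31.4 and 57.2 against 16.2, 20 and 26.2) without passing the test (limma adjusted p = 0.0956), and *Cenpa*, the histone of centromeres, overlapped. *Spc25* was higher too, and its values follow after those of the other genes.

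Of the 8 spindle motors and microtubule proteins, *Kif11*, *Nusap1*, *Prc1*, *Tpx2* and *Hmmr* were higher in null islets. *Hmmr*, a spindle assembly protein, had 81.9, 68.5 and 121 normalised counts in null and 30.9, 46.8 and 23.5 in WT islets. Null and WT libraries did not overlap, and the log2 difference was 1.41 ± 0.34 (limma adjusted p = 0.0124). *Tpx2*, the activator of *Aurka* on the spindle, had 110.1, 92.2 and 149.8 in null and 79.5, 35.6 and 48.3 in WT islets, again without overlap. It was higher by 1.14 ± 0.33 (adjusted p = 0.0265 by limma). *Kif11*, *Nusap1* and *Prc1* were higher by 0.76 to 0.85. *Kif11* was the least stable call of the 19, holding in 10 of 18 alternatives. *Kif4* had a larger difference, 1.53 ± 0.54, but missed the threshold (adjusted p = 0.0583 by limma), and the kinesins *Kif20a* and *Kif23* differed by 0.46 and 0.26 without passing.

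Both partners of the anaphase-promoting complex, *Cdc20* and the ubiquitin-conjugating enzyme *Ube2c*, overlapped between the groups. *Cdc20*, its activator, had 81.9, 64.6 and 129 normalised counts in null and 83.9, 53.4 and 71.8 in WT islets (log2 difference 0.36 ± 0.30, limma adjusted p = 0.419). All 3 cytokinesis genes, in contrast, were higher in null islets. *Racgap1*, a member of the centralspindlin complex, had 238, 235 and 224 in null and 118, 132 and 116 in WT islets. *Ect2*, the exchange factor that switches on RhoA at the cleavage plane, had 147, 134 and 169 in null and 69.2, 43.4 and 63.5 in WT islets. Neither gene had any overlap, and the spread within each group was small beside the difference. *Racgap1* was higher by 0.92 ± 0.16 and *Ect2* by 1.36 ± 0.24 (limma adjusted p = 0.00321 and 0.00332). *Anln*, a scaffold of the contractile ring, was higher by 0.77 ± 0.25.

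The general markers of proliferation were higher in null islets as well. *Top2a*, the topoisomerase that untangles sister chromatids, had 346, 352 and 384 normalised counts in null and 141, 118 and 146 in WT islets. The null libraries lay close together and far above the WT libraries, and the difference of 1.41 ± 0.16 had the smallest adjusted p of all members (limma, 0.000515). *Mki67*, a protein that coats mitotic chromosomes and is the antigen of the common staining for dividing cells, had 283, 293 and 397 in null and 243, 158 and 169.9 in WT islets. Null MUT229 was the highest and WT 1 came near null MUT218 without overlap, a difference of 0.78 ± 0.21 (adjusted p = 0.0213 by limma). *Mki67* was called in 15 of 18 alternatives.

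**Figure D3:**
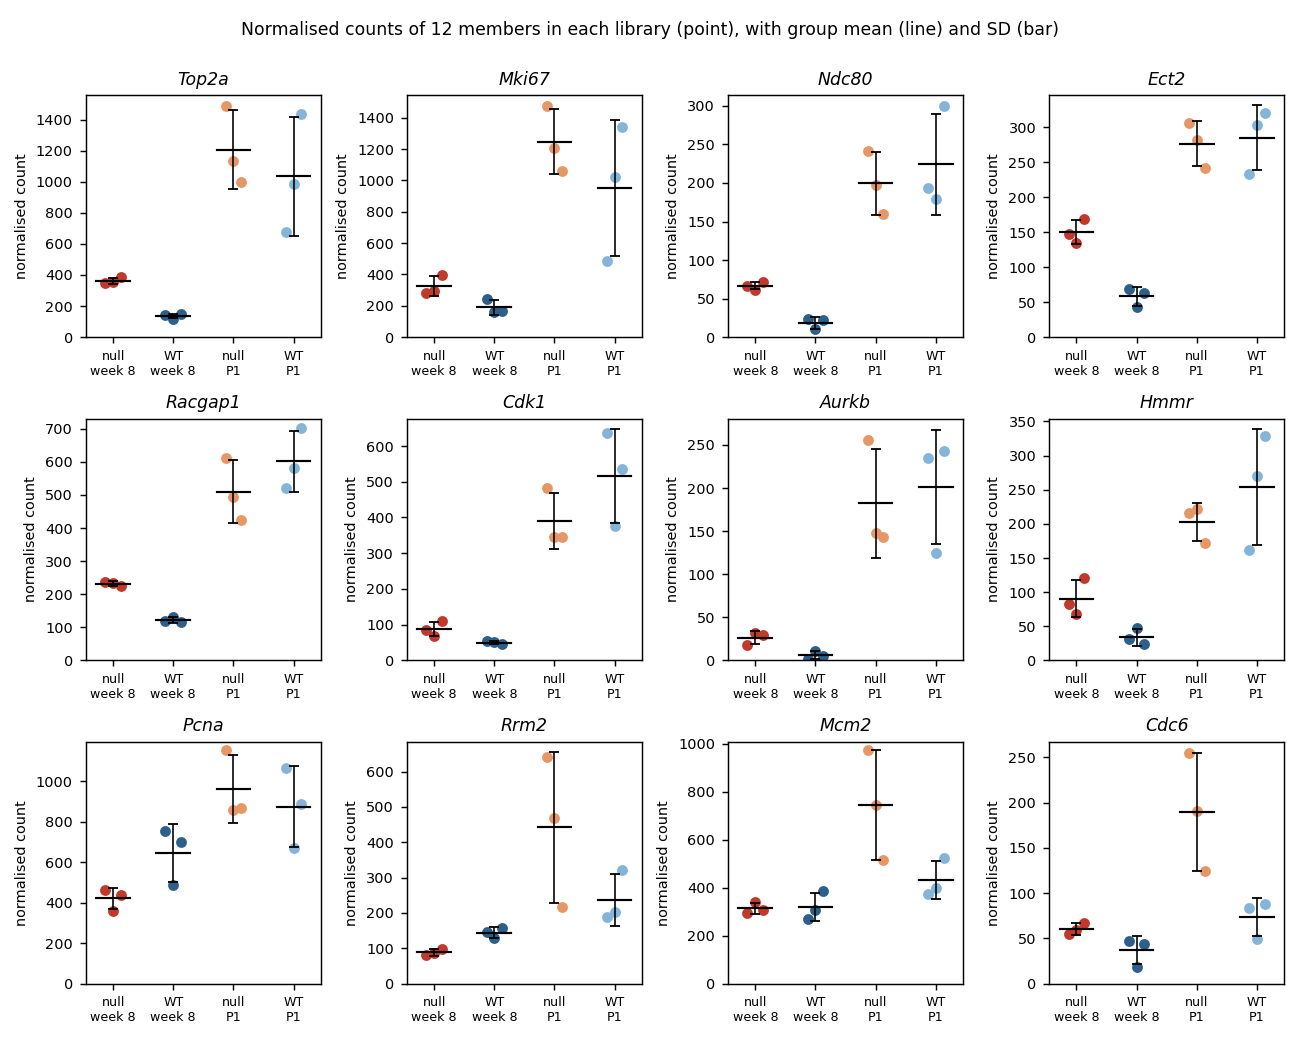
Normalised counts (y axis, from 0) of 12 members in week 8 null, week 8 WT, P1 null and P1 WT islets. Points are libraries, lines the group means and bars the SD (n = 3). In the first 8 panels the week 8 null points lie above the week 8 WT points and both lie below P1, *Pcna* and *Rrm2* are lower in week 8 null than in week 8 WT islets (not so with libraries scaled to their full total), *Mcm2* overlaps at week 8, and the P1 null points of *Rrm2*, *Mcm2* and *Cdc6* are spread widely.

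Null library MUT229 held the highest value of the null libraries in 39 of 53 members, among them 23 of 27 mitosis genes, while null MUT219 and MUT218 were the highest in 11 and 3. Summed over 26 mitosis genes other than *Spc25*, normalised counts were 2076, 2038 and 2789 in null MUT218, MUT219 and MUT229 and 1507, 1162 and 1139 in WT 1, 2 and 3, so that the null animals lay above all WT animals also without MUT229. Over the 16 S phase genes the sums were 2737, 3057 and 3104 in null and 3424, 2629 and 3536 in WT islets and overlapped. As a share of all assigned reads, acinar reads included, the S phase genes took 0.0142 to 0.0167% in null and 0.00808 to 0.0107% in WT libraries, without overlap. The libraries also differed in their cell types. All 29 acinar markers were lower in null islets (median -2.45 on the log2 scale), as were 10 of 10 stromal, 9 of 11 duct, 6 of 11 endothelial and 4 of 10 macrophage markers, and 11 of 13 beta cell markers were higher (median 1.02). The beta cell markers took 12.5, 11.9 and 13.7% of the reads in null and 3.001, 5.22 and 2.63% in WT libraries. The part of these shifts in the members' differences was not tested. With libraries scaled to their total without acinar markers, 19 members were again higher and 1 was lower, against 14.3% and 14.7% of all genes. That total leaves out acinar markers only, so the shifts of the other cell types remain.

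**Figure D4:**
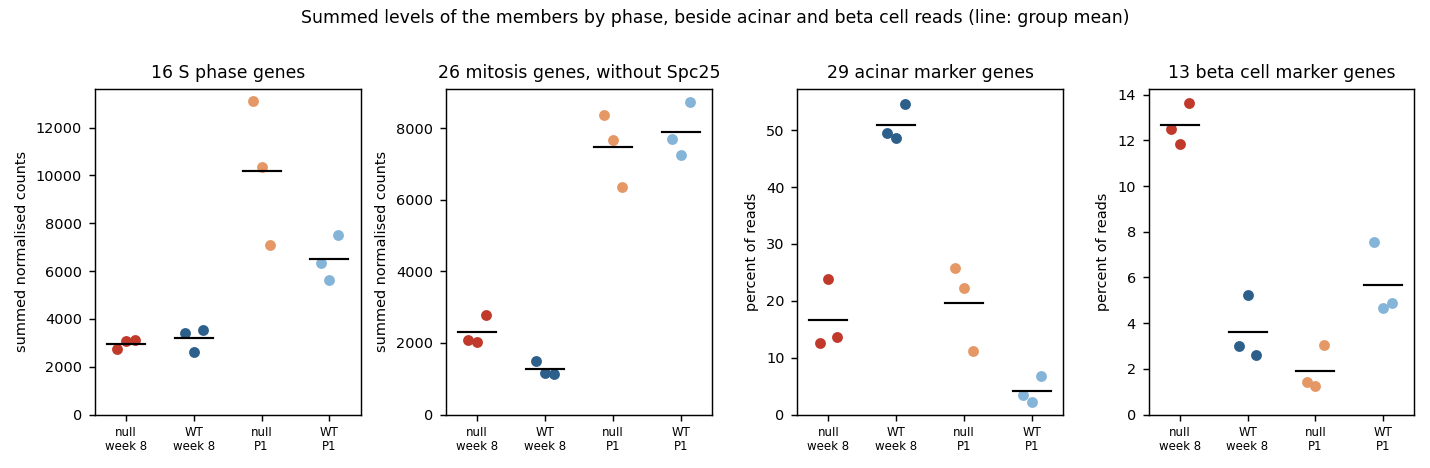
Sums of normalised counts over the 16 S phase genes and over 26 mitosis genes (without *Spc25*), and the percent of reads from 29 acinar and 13 beta cell markers, in each library (point) by group, with group means (lines). At week 8 the null points lie above the WT points for mitosis genes and beta cell markers and below for acinar markers, and overlap for S phase genes. At P1 the null points lie above the WT points for acinar markers and below for beta cell markers.

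Genes of the same pathways that are not members were counted in the same way. Of all genes 12.3% were higher and 15.8% lower in week 8 null islets, with a median of 0.020. Of 50 other mitosis genes, 17 were higher and 1 was lower in week 8 null islets (median 0.83), led by *Pbk* (log2 difference 1.70), *Ncapg* (1.66) and *Sgol2* (1.89), with *Pttg1*, the securin, lower (-0.60). Of 41 other replication genes, 10 were higher and 2 lower (median 0.37), with *Clspn* (2.90), *Rpa1* (0.70) and *Dut* (0.66) higher and *Gins1* (-2.23) and *Gins4* (-0.58), subunits of the GINS complex of the helicase, lower. *Clspn* is an adaptor of the replication checkpoint and *Rpa1* a subunit of the single-strand binding protein. Thus 24.4% of these other replication genes were called upward, and 0 of the 16 S phase members with the deposited size factors. In 3 of these 16 (18.8%) every null library lay above every WT library, against 21.5% of all genes.

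At P1 no member passed the test by limma. The counts were 0 higher and 0 lower of 53, against 0.0548% higher and 0.011% lower among 18235 genes, of which only 12 were called in all. At an unadjusted p under 0.05 stood 14 members (26.4%), against 2730 of all genes (15%). The edgeR test called 0 members. DESeq2, which called 2.16% of all genes higher and 1.18% lower, called 3 members, *Cdc6* and *Mcm6* higher and *Spc25* lower in null islets. Without P1 null 3, limma called 2 members higher, *Mcm5* and *Mcm6*, and 0.631% of all genes higher and 0.433% lower. In 6 members all null libraries lay above all WT libraries, against 12.7% of all genes, and in 5 they lay below, against 10.9%, and the members' shares of 11.3% and 9.43% of the members were near those of all genes. All 16 S phase genes had a log2 fold change above 0 (median 0.68, with 9 at an unadjusted p under 0.05), whereas 10 of 27 mitosis genes lay above and 17 below 0 (median -0.05), and the median of all genes was 0.027.

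Among the S phase genes at P1, *Mcm2* had 973, 746 and 517 normalised counts in null 1, 2 and 3 and 373, 399 and 523 in WT 1, 2 and 3. Null 1 and 2 lay above all WT libraries and null 3 just below the highest of them, and the log2 difference was 0.75 ± 0.24 (limma adjusted p = 0.215). *Cdc6* had 255, 191 and 124 in null and 83.2, 49 and 88.2 in WT islets, without overlap and with the largest difference of the members, 1.34 ± 0.33 (adjusted p = 0.143 by limma). *Ezh2* had 563, 614 and 517 in null and 387, 353 and 434 in WT islets. It too had no overlap, with a difference of 0.53. *Pcna* had 1156, 858 and 870.0 in null and 1068, 670.3 and 890.2 in WT islets, and *Cdt1* had 529.9, 421 and 240.3 in null and 335, 236 and 326 in WT islets. *Gmnn* had 177, 143 and 90.3 in null and 146, 86.1 and 175 in WT islets. The values of *Pcna*, *Cdt1* and *Gmnn* overlapped, with differences of 0.15, 0.35 and 0.02.

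The proliferation markers, *Cdk1*, the cyclins and *Cdc20* lay on both sides of 0 at P1. *Mki67* had 1477, 1207 and 1063 normalised counts in null and 485, 1020.2 and 1344 in WT islets, and *Top2a* had 1488, 1132 and 996 in null and 679, 988 and 1439 in WT islets. For both genes the WT libraries spread more widely than the null libraries and the ranges overlapped, with WT 1 the lowest. *Cdk1* had 481, 346 and 346 in null and 636, 375 and 535 in WT islets. *Ccnb1* had 146, 163 and 108 in null and 231, 159 and 198 in WT islets. Their log2 differences were -0.38 and -0.50, and both overlapped between the groups. *Ccna2* had 572, 506 and 351 in null and 564, 447 and 626 in WT islets. *Cdc20* had 393, 408 and 287 in null and 512, 344 and 360.2 in WT islets, and *Ccne1* had 301, 199 and 162 in null and 172, 113 and 152 in WT islets. All 3 overlapped between the groups. For the 12 members given here other than *Cdc6* the limma adjusted p lay from 0.199 to 0.984.

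The P1 null libraries differed among themselves. Null 1 held the highest of the 3 null values in 15 of 16 S phase genes and null 3 the lowest in 15. The sums over the 16 S phase genes were 13112, 10368 and 7079 in null 1, 2 and 3 and 6331, 5632 and 7517 in WT 1, 2 and 3. The acinar share was also highest in null 1 and lowest in null 3, at 25.7, 22.2 and 11.2%, and all 29 acinar markers lay above 0 in null against WT islets (median 2.66, 2 called), while 12 of 13 beta cell markers lay below 0 (median -0.89, 0 called). All 10 stromal markers lay above 0 (median 0.64, 0 called), and 7 of 8 erythroid markers lay below 0 (median -1.19, 0 called). The part of the acinar share, or of these other cell types, in the values of the S phase genes was not tested. Of the genes outside the members, 32 of 41 other replication genes lay above 0 (median 0.52) and 28 of 50 other mitosis genes (median 0.067), with 0 called in either list, and with 14 and 6 at an unadjusted p under 0.05. The latter are 34.1% and 12%, against 15% of all genes.

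The genotype effects at week 8 and P1 were then compared directly, as the difference of the null over WT log2 fold changes, week 8 minus P1, in 1 fit of all 12 libraries. Of the members, 14 had a positive difference past the threshold and 2 a negative one, against 8.2% and 13.6% of 18338 genes. By role, 11 of 27 mitosis genes were positive and 0 negative (median 0.96), and 0 of 16 S phase genes were positive and 2 negative (median -0.71), while the median of all genes was -0.011. The 2 negative S phase genes are 12.5% of the 16, near the 13.6% of all genes. For the cytokinesis genes *Racgap1* and *Ect2* the difference was 1.17 ± 0.24 and 1.40 ± 0.31, and for *Ndc80* it was 2.02 ± 0.44 (limma adjusted p = 0.00404, 0.00557 and 0.00572). *Plk1*, the Polo-like kinase of mitotic entry, and *Kif20a*, a kinesin of the central spindle, were positive at 1.40 ± 0.41 and 0.89 ± 0.29, although neither was called at week 8 alone. *Hmmr* gave 1.68 ± 0.44, *Aurkb* 2.33 ± 0.70, *Top2a* 1.15 ± 0.32, and *Cdk1* and its cyclin *Ccnb1* 1.16 ± 0.33 and 1.62 ± 0.50. The negative differences were those of *Rrm2* (-1.51 ± 0.45, adjusted p = 0.0288 by limma), whose P1 null pools spread from 217 to 641 normalised counts, and of *Mcm7* (-0.72 ± 0.23, adjusted p = 0.0358 by limma). The positive count was 9, 6 and 6 without P1 null 1, 2 or 3, 8 without P1 WT 3, 5 without null MUT229 and 7 without week 8 WT 3, where 5.01, 5.14, 8.5, 6.9, 5.76 and 5.16% of all genes were positive. The negative count was 0 without P1 null 1 or 2, P1 WT 2, null MUT218 or week 8 WT 1 or 3, 1 without P1 WT 3, null MUT219 or null MUT229, 4 without P1 null 3 and 5 without week 8 WT 2, while from 9.87% to 15.6% of all genes were negative in these fits. With libraries scaled to their full total 40 members were positive and 0 negative, beside 51.9% of all genes positive and 5.18% negative. The median of all genes then moved to 1.03, and *Mcm7* turned to 0.36 without passing the test. Of the other mitosis genes 14 of 50 were positive and 0 negative, and of the other replication genes 5 of 41 were positive and 3 negative. Cell type markers differed in the same fit. All 29 acinar markers were negative (median -5.02), as were 10 of 10 stromal markers (median -2.91), while 11 of 13 beta cell markers were positive (median 1.79). The part of these markers' cell types in the members' values was not tested. The ages also differ in pooling and in library numbers, which this comparison cannot tell apart from age.

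With age nearly all members differed. In null islets 49 of 53 members were lower at week 8 than at P1 and 1 was higher, against 25.5% lower and 21.2% higher among all genes, and in WT islets 46 were lower and 1 was higher, against 16.8% and 15.9%. The 1 higher member was *Spc25* in both. The median log2 fold change, week 8 over P1, was -1.84 in null and -2.28 in WT islets. Age cannot be told apart from the use of pools at P1 and of single mice at week 8, nor from the separate library numbers of both ages. The cell types differed with age too. In WT islets 28 of 29 acinar markers were higher at week 8 and 1 was lower (median 5.54). In null islets 7 were higher and 6 lower (median 0.45). Of 13 beta cell markers, 13 in null and 4 in WT islets were higher at week 8, and none was lower. Among 10 stromal markers 9 were lower and 1 higher in null islets, and 3 were lower and 3 higher in WT islets. Endothelial markers lower at week 8 were 10 of 11 in null and 6 of 11 in WT islets, and erythroid markers 2 of 8 and 6 of 8, with 0 higher. Macrophage markers were higher in 5 of 10 and lower in 2 in null islets, and higher in 7 and lower in 0 in WT islets. The part of these shifts in the members' age differences was not tested. *Cdk1* had 84.6, 69.4 and 110.0 normalised counts at week 8 and 481, 346 and 346 at P1 in null islets. In WT islets it had 53, 51.2 and 45.6 at week 8 and 636, 375 and 535 at P1. No week 8 library came near a P1 library, with differences of -2.15 ± 0.24 in null and -3.31 ± 0.24 in WT islets (limma adjusted p = 6.29e-06 and 3.83e-07).

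The mitosis genes had a median difference with age of -1.84 in null and -2.66 in WT islets, against -1.71 and -1.05 for the S phase genes. The log2 difference of *Ccnb2*, a mitotic cyclin, was -2.62 in null and -3.33 in WT islets. The spindle and cytokinesis genes that fell included *Bub1* (-2.27 in null, -3.30 in WT), *Nusap1* (-1.99 in null, -2.87 in WT), *Prc1* (-1.84 in null, -2.53 in WT), *Racgap1* (-1.11 in null, -2.28 in WT) and *Anln* (-1.88 in null, -2.49 in WT). *Nusap1* bundles spindle microtubules and *Prc1* those of the central spindle. Both markers of proliferation fell, *Top2a* (-1.72 in null, -2.87 in WT) and *Mki67* (-1.94 in null, -2.22 in WT), as did *Plk1* (-1.80 in null, -3.20 in WT), *Cdc20* (-2.01 in null, -2.52 in WT) and *Foxm1* (-2.02 in null, -2.69 in WT). The fall was smaller in null than in WT islets in all of these 11 genes, and that difference passed the test of the interaction for *Racgap1*, *Top2a* and *Plk1* but not for the other 8. Acinar and beta cell markers also shifted unlike in the 2 genotypes, and their part in this was not tested. Among S phase genes, the differences of *Mcm5* (-2.59 in null, -1.89 in WT), *Uhrf1* (-2.98 in null, -2.27 in WT), *Cdt1* (-2.07 in null, -1.92 in WT), *Ezh2* (-1.82 in null, -1.0 in WT) and *Tk1* (-2.40 in null, -3.14 in WT) passed in both genotypes. *Rrm2* fell in null islets, by 2.18 on the log2 scale, and in WT islets it differed by -0.67 without passing the test. The members that did not pass with age were *E2f1*, *Ccne2* and *Gmnn* in null islets, and *E2f1*, *Ccne2*, *Mcm2*, *Pcna*, *Rrm2* and *Tyms* in WT islets. Of the other mitosis genes 46 of 50 in null and 47 of 50 in WT islets were lower at week 8, and of the other replication genes 31 and 27 of 41. Scaling to the total without acinar markers moved the median of all genes to -0.37 in null and -0.41 in WT islets. Under it 11.1% of all genes were higher and 37.1% lower at week 8 in null islets, and 8.11% higher and 36.1% lower in WT islets, while 51 members in null and 52 in WT islets were lower. Scaling to the full total moved it to -0.32 in null and -1.35 in WT islets, with 33.1% and 76.8% of all genes lower, and 50 and 52 members.

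*Spc25* stood apart from the other members in level and in direction. It encodes a subunit of the NDC80 complex, whose proteins act together at the kinetochore. It had 3024, 3657 and 4818 normalised counts in null MUT218, MUT219 and MUT229 and 1667, 2331 and 1558 in week 8 WT 1, 2 and 3. At P1 it had 482, 289 and 346 in null and 835, 489.8 and 781 in WT islets. Every null library was above every WT library at week 8 and below every WT library at P1. The log2 difference was 1.05 ± 0.19 at week 8 (limma adjusted p = 0.00387) and -0.91 ± 0.26 at P1 (adjusted p = 0.179), and the difference between these effects was 1.95 ± 0.35 (adjusted p = 0.0016 by limma). With age it rose by 3.36 ± 0.25 in null and by 1.41 ± 0.25 in WT islets. With libraries scaled to their full total the age difference was 3.07 in null islets but 0.04 in WT islets (limma adjusted p = 0.886), so that the rise in WT islets depended on the scaling.

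The other subunits of the complex shared neither this level nor the rise with age. Per kb, *Spc25* reached 1202 ± 285 in week 8 null and 581 ± 131 in week 8 WT islets, against 30.2 ± 2.07 and 8.43 ± 3.38 for *Ndc80* and 15.8 ± 5.65 and 8.13 ± 1.98 for *Nuf2* (SD, n = 3 each). *Spc24*, its direct partner and no member, had 49, 68.5 and 65.8 normalised counts in week 8 null and 41.2, 39 and 27.6 in week 8 WT islets, against 267, 191 and 111 in P1 null and 161, 133 and 180.1 in P1 WT islets. *Spc24* differed between week 8 and P1 by -1.54 ± 0.30 in null and -2.11 ± 0.30 in WT islets, each lower at week 8, as *Ndc80* (-1.55 ± 0.31 and -3.57 ± 0.31) and *Nuf2* (-1.53 ± 0.30 and -2.28 ± 0.30) were. At P1 the subunits were closer, with *Spc25* at 117 ± 31.1 per kb and *Ndc80* at 90.7 ± 18.7 per kb in null islets, and at 220.2 ± 58.2 and 102 ± 29.7 per kb in WT islets.

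In the annotation (GENCODE M21, GRCm38) *Spc25* lies between *Nostrin* and *G6pc2*, which is transcribed away from it on the other strand. *G6pc2*, a glucose-6-phosphatase subunit of beta cells, had 18913, 27636 and 30147 normalised counts in week 8 null, 11672, 21829 and 10290.3 in week 8 WT, 2209.8, 1063 and 1629 in P1 null and 3288, 2097 and 3529 in P1 WT islets. Its log2 differences were 0.86 ± 0.28 at week 8, -0.89 ± 0.29 at P1, 4.0 ± 0.31 with age in null and 2.25 ± 0.31 with age in WT islets, each of the same sign as that of *Spc25*. These signs are not particular to *G6pc2*, which belongs to the 13 beta cell markers. The medians of these markers were 1.02 at week 8, -0.89 at P1, 2.90 with age in null and 0.58 with age in WT islets. Markers of the other sign numbered 0, 1, 0 and 3 in the same order. The normalised count of *Spc25* was 16, 13.2 and 16% of that of *G6pc2* in week 8 null and 14.3, 10.7 and 15.1% in week 8 WT libraries, against 21.8, 27.2 and 21.3% in P1 null and 25.4, 23.4 and 22.1% in P1 WT libraries. *Nostrin*, on the other side, differed by -0.34 ± 0.19 at week 8 and by 0.0067 ± 0.25 at P1, and with age it was higher at week 8, by 0.75 ± 0.23 in null and 1.1 ± 0.23 in WT islets (limma adjusted p = 0.0141 and 0.00194). No exon bases are shared by *Spc25* and *G6pc2* in this annotation. The part of *G6pc2* reads in the count of *Spc25* was not tested.

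**Figure D5:**
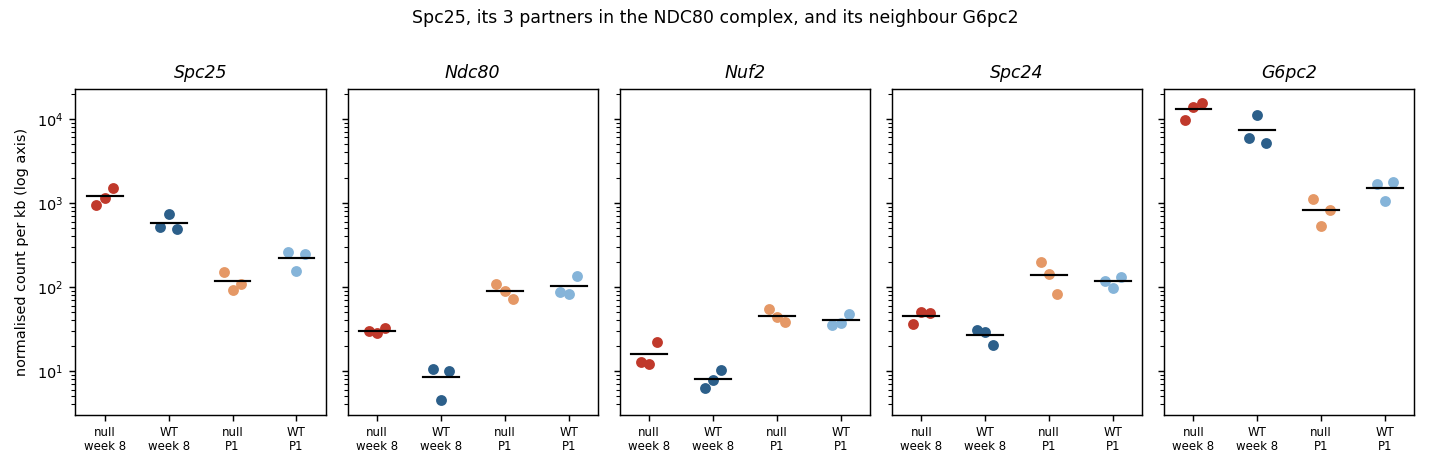
Normalised counts per kb (log axis) of *Spc25*, of *Ndc80*, *Nuf2* and *Spc24*, which complete the NDC80 complex, and of the neighbouring gene *G6pc2*, in week 8 null, week 8 WT, P1 null and P1 WT islets. Points are libraries and lines the group means. On this scale *Spc25* and *G6pc2* are higher at week 8 than at P1, while the other subunits are lower at week 8.

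Some members share exon bases with a gene on the opposite strand. In GENCODE M21 this held for 11 of the 53 with a gene that is also in the table, among them *Prc1* with *Rccd1* and *Nusap1* with *Oip5*, both called at week 8, and *Kif20a* with *Cdc23* and *Mcm7* with *Ap4m1* and *Cops6*, both called in the comparison of week 8 with P1. The libraries were made with a directional kit, but whether counting used the strand is not given in the sources used here, so the values of these 11 genes are uncertain to that extent.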

How the data were processed

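Poly(A) RNA of isolated mouse islets was sequenced as single reads from directional libraries, 3 in each of 4 groups taken from the labels. For 18351 Ensembl genes (build mm9) the authors deposited a signal, which is the count of reads over the size factor of the library, and the notes of the submitters name bedtools 2.11 and DESeq 1.10.1. The sources used here name neither an aligner nor the options of counting nor a filter on genes. The table also holds group means, fold changes and p-values made by the authors, which were not used, and 0 columns of single libraries were left unused. The gene length in bases deposited by the authors gave values per kb. Every value in a library was a whole multiple of 1 step (within 0.001), so that 100% of values gave back whole reads, and alternative tests and depths rest on these. On them edgeR called 2258 genes higher and 2879 lower in week 8 null islets, and 14 higher and 4 lower in P1 null islets. The whole reads of any 2 libraries of a group differed beyond counting error, with a chi-square of 12.8 to 108 for each degree of freedom.

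Values were tested as log2(normalised count + 1) with limma 3.58.1 (trend) in R 4.3.3, two-sided, for genes with a mean of at least 1 over the libraries in the fit, with Benjamini-Hochberg adjustment over all genes and a threshold of 0.05 on the adjusted p. Null and WT were compared within each age in fits of 6 libraries. The difference between the ages in the null effect, and age within each genotype, came from 1 fit of 12 libraries. Error terms of log2 differences are SE. Alternatives were TMM scaling, scaling to the total without acinar markers, scaling of the whole reads to the full library total (chosen after seeing the data), pseudocounts of 0.1 and 10, no filter and a mean of at least 10, edgeR 4.0.16 and DESeq2 1.42.0 on the whole reads, an adjusted p of at most 0.1, all 12 libraries in 1 fit, a loess of span 0.4 on gene length, a block on the replicate number, and the omission of each library in turn. Each test was tested on simulated data with known changes. The simulated counts had a spread set alike for all genes and no differences in cell types. They therefore do not measure how the tests perform on these libraries.

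The members, their roles and the other gene lists were chosen with earlier results of these data known, so no test over a list was made. Values of each library were given for up to 2 members of a role with the smallest adjusted p among those called, and for *Mki67*, *Top2a*, *Pcna*, *Mcm2*, *Cdk1*, *Ccna2*, *Ccnb1*, *Ccne1*, *Cdc20*, *Ezh2*, *Gmnn* and *Cdt1*. In the age comparisons and the interaction, members of smallest adjusted p in a role were named. The values of the other members named, of *Spc24*, of *G6pc2* and of *Nostrin* were chosen after they were seen. Promoters were RefSeq sequences of build GRCm38.p6, matched by symbol. Figures were drawn with matplotlib 3.10.9 in Python 3.11.15.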

Additional observations from a re-analysis of the deposited data

Results flagged for a closer look

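The effect of the null genotype on 16 members differed between week 8 and P1, by the limma test of the interaction across 12 libraries (adjusted p from 0.0016 to 0.0495, 3 libraries a group). Among the 53 members 26.4% were positive and 3.77% negative, against 8.2% and 13.6% of all 18338 genes tested. The values are log2 differences, null over WT at week 8 minus null over WT at P1. Among kinetochore genes, *Ndc80* had 2.02, *Spc25* 1.95 and *Cenpf* 1.33. Among kinases, *Aurkb* had 2.33, *Aurka* 1.43 and *Plk1* 1.40. The spindle genes *Hmmr*, *Tpx2* and *Kif20a* had 1.68, 1.17 and 0.89. The cytokinesis genes *Ect2* and *Racgap1* had 1.40 and 1.17. *Ccnb1*, *Cdk1* and *Top2a* had 1.62, 1.16 and 1.15. *Rrm2* and *Mcm7*, both of S phase, had negative differences of -1.51 and -0.72. *Ndc80*, *Spc25*, *Ect2*, *Racgap1* and *Hmmr* were called in all 22 alternative settings, while *Cenpf* was called in 10 of 22, *Mcm7* in 12 of 22 and *Tpx2* in 13 of 22. In the same fit all 29 acinar markers were negative and 11 of 13 beta cell markers positive, and the part of these shifts was not tested.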

How the results depend on the processing

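Over all 53 members and all alternatives, 4574 of 4876 values kept the call they had, 183 lost it and 119 gained one. None was called in the opposite direction, but 3 called differences changed sign, all with libraries scaled to their full total, an alternative added after the data were seen. These were *Pcna* (0.22) and *Rrm2* (0.10) at week 8 and *Mcm7* (0.36) in the interaction, and *Mcm2*, not called at week 8 before, gave 0.80 and was called. That scaling gave 47 members higher and 0 lower at week 8 and 40 positive and 0 negative in the interaction, with medians of all genes at 0.80 and 1.03, and 0 members higher with age in WT islets. Under it 56.4% of all genes were higher at week 8, 51.9% were positive in the interaction and 2.84% were higher with age in WT islets. At week 8, the 19 members higher in null islets ranged from 5 to 17 when 1 library was left out, and the 2 lower from 0 to 3. Of all genes, from 5.46% to 16% were then higher and from 9.33% to 18.6% lower. Scaling to the total without acinar markers and the fit of all 12 libraries each left 1 lower, beside 14.7% and 15.2% of all genes. At P1, where limma called 0 members, DESeq2 called 2 higher and 1 lower, and leaving out 1 library gave from 0 to 2 higher and 0 lower. DESeq2 called 2.16% of all genes higher and 1.18% lower there. With 1 library left out, up to 0.895% of all genes were higher and up to 0.45% lower. The interaction, with 14 positive and 2 negative, gave from 5 to 16 positive and from 0 to 5 negative with 1 library left out. From 5.01% to 12.6% of all genes were then positive and from 9.87% to 15.9% negative. The negative count of the interaction was 1 with scaling to the total without acinar markers, 4 with DESeq2 and 6 at an adjusted p of at most 0.1. Of all genes 12.6, 15.5 and 17.2% were negative under these settings. The cause was not tested, but dropping a library leaves 2 in its group. The age counts stayed between 43 and 52 lower in WT and between 47 and 51 lower in null islets, with 1 higher in every other alternative. Of all genes, from 10.4% to 76.8% in WT and from 21.5% to 37.1% in null islets were lower in these fits. Libraries of P1 null and P1 WT islets share the numbers 1 to 3, as do those of week 8 and P1 WT islets. The correlation of the deviations of libraries of the same number was between -0.023 and 0.0047 in the first case. In the second case it was between -0.046 and -0.017. Libraries of different numbers gave from -0.068 to 0.072 and from -0.045 to 0.071. With 3 libraries a group this check cannot exclude a pairing. With the replicate block 0 members were called at P1, and 1 higher and 44 lower between week 8 and P1 in WT islets, the latter against 9.69% and 10.4% of all genes. No such fit was made for week 8, since the null animals carry numbers of their own. Members with few reads, such as *Aurkb*, are limited by depth.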
